A study of Mus musculus with 3 samples.

Results

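The genes described here encode the respiratory chain and ATP synthase, the machinery of oxidative phosphorylation in the inner mitochondrial membrane. They were chosen by gene symbol alone. Every probe set with 1 gene symbol that begins with Nduf, Uqcr, Cox4 to Cox8 or Atp5, or that is Sdha, Sdhb, Sdhc or Sdhd, was taken, which gave 179 probe sets of 90 genes among 18194 genes. Of these, 36 genes were grouped as complex I, 8 as its assembly factors, 4 as complex II, 8 as complex III, 17 as complex IV and 17 as complex V, the ATP synthase. RNA came from Melan-a NRAS61K cells, immortalized mouse melanocytes that carry the mutant NRAS61K oncogene, harvested at 6, 14 or 28 days of culture in doxycycline (1 µg/ml). There was 1 array per time point, and 3 of the 4 samples that the series text mentions were used here. Doxycycline, an antibiotic used to switch on inducible transgenes, was present in all 3 groups, and it is also known to bind mitochondrial ribosomes. Time with doxycycline and time with any gene that it switches on cannot be told apart in these arrays. No array of untreated cells was analysed here, and the labels do not say whether the cells are 1 clone.

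Complexes I and II feed electrons from NADH and succinate into ubiquinone, complex III passes them to cytochrome c, and complex IV passes them to oxygen. Complexes I, III and IV pump protons while they do so, and complex V makes ATP from the return flow. Most subunits are encoded in the nucleus and imported, while mitochondrial DNA encodes a few core subunits that are made on the mitochondrion's own ribosomes. In melanoma and in melanocytes, the coactivator PGC-1α (Ppargc1a) is known to raise the expression of these genes, and in human melanoma it is known to act downstream of the melanocyte factor MITF.

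Values are read as log2, which is inferred from the table, and every difference below subtracts the earlier array from the later one. The background, taken from genes silent in pigment cells, was 22.75, 22.58 and 22.81 at days 6, 14 and 28. Of the 90 genes, 83 lay above it on all 3 arrays and 7 on none. Markers of melanocytes were above it for 9, 9 and 8 of 12 genes in order of time, although Tyr and Kit lay below it on every array. Fibroblast markers were above it for 6 of 10 genes on each array, keratinocyte markers for 3, 3 and 2 of 9, and macrophage and leukocyte markers for 5, 5 and 4 of 12. By the same gene values, 16 of the 70 silent genes lay above it on at least 1 of the 2 arrays of each comparison. A marker above it is thus not shown to be expressed. The summed log2 values were 285.6, 306.6 and 298.0 for melanocyte markers, 228.5, 235.6 and 234.2 for fibroblast markers, 198.4, 197.8 and 198.0 for keratinocyte markers, and 270.1, 269.7 and 274.2 for leukocyte markers. Relative to day 6, the markers above the background had medians of 0.87 at day 28 and 1.91 at day 14 for melanocytes, and of 0.21 and 0.69 for fibroblasts. For keratinocytes they were 0.01 and -0.13, and for macrophages and leukocytes -0.13 and -0.22. Some single markers differed by more, such as Dct (23.83, 29.17 and 28.03) and Mlana (24.25, 29.08 and 28.38) of the melanocyte list. Of the melanocyte markers described, 6 of 9 were higher at day 28 than at day 6, and 9 of 10 at day 14. In the fibroblast list, Ogn read 24.29, 27.47 and 25.59, and Pdgfra read 23.88, 24.26 and 25.50. Pdgfrb of that list read 27.72, 28.65 and 27.93. Col1a1 (23.97, 23.39 and 23.60) was lower at both later days. Col1a2 read 22.99 at day 6 and lay below the background at days 14 and 28. Of the 7 fibroblast markers described, 4 were higher and 3 lower at day 28 than at day 6. At day 14, 5 were higher and 2 lower than at day 6. Of all genes, 50.6% were higher at day 28 and 47.4% at day 14 than at day 6. Of the macrophage list, Lyz2 read 24.57, 27.17 and 27.31, and Cd68 read 25.09, 23.98 and 25.99. Others, such as Ptprc, Krt14, Trp63, Lum and Thy1, were below the background throughout. Their part in the differences below was not tested. Spiked poly-A controls averaged 23.08, 23.29 and 23.51 over time, and hybridization controls averaged 27.22, 27.31 and 27.25.

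The respiratory chain genes differed little over the time course, and most of the differences were toward lower levels at days 14 and 28 than at day 6. At day 28 the median gene of the 83 differed from day 6 by -0.13 on the log2 scale, where that of the 11703 genes described differed by 0.01. Of the 83, 61 were lower and 22 higher, where 49.4% of all genes were lower and 50.6% higher. For day 14 against day 6 the median was -0.18, where that of 11829 genes was -0.03, and 63 were lower and 20 higher, where 52.6% and 47.4% of all genes were. Between days 28 and 14 the median was 0.04, where that of all genes was 0.03, and 34 were lower and 49 higher, where 45.4% and 54.5% of all genes were. With 1 array per time point no test of these differences was possible, and no p-value or SD between cultures is given. In RNA from a whole culture, fewer cells of a type and less RNA per cell cannot be told apart. Days 6 and 14 each enter 2 of the comparisons, as does day 28, so the comparisons are not independent.

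No respiratory chain gene differed by 2-fold in any comparison, while 6.56% of all genes were 2-fold higher and 4.05% 2-fold lower at day 28 than at day 6. For day 14 against day 6 the shares of all genes were 5.47% and 3.9%, and for day 28 against day 14 they were 2.18% and 1.45%. At a limit of 1.5-fold, 4 were lower and 2 higher at day 28 than at day 6, against 12.3% and 15.7% of all genes. For day 14 against day 6, 5 were lower and 0 higher, against 14.2% and 13.5%. For day 28 against day 14, 0 were lower and 1 was higher, against 4.41% and 7.52%. These genes are bright, with 65 of the 90 in the top 10% of genes by mean value. Among the 1564 genes at or above the lower quartile of their mean value, a set chosen after the values were seen, 6.59% were 1.5-fold lower and 11.8% higher at day 28 than at day 6. Of these bright genes, 7.61% were 1.5-fold lower and 13.4% higher at day 14 than at day 6, and 2.30% were lower and 2.17% higher at day 28 than at day 14. By 2-fold, 1.21% of them were lower and 3.32% higher at day 28 than at day 6. The shares by 2-fold were 0.64% and 3.77% at day 14 relative to day 6, and 0.38% and 0.26% at day 28 relative to day 14. At these fold limits the contrast with bright genes was thus mostly smaller than that with all genes, and smallest between days 28 and 14. For genes 1.5-fold higher at day 14 than at day 6, the 2 contrasts were nearly the same (13.4% of bright and 13.5% of all genes). In direction, 48.8% of the bright genes were lower at day 28 than at day 6, where 73.5% of the 83 genes were. For day 14 against day 6 the shares were 48.5% and 75.9%, and for day 28 against day 14 they were 52.1% and 41.0%. The bright set includes respiratory chain genes, and 1502 of it are other genes. The highest value of the table was 30.6, and whether differences are compressed near it was not tested.

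The spread among the genes was narrower than that of all genes, in part as for other bright genes. Across the 72 ubiquitous subunits above the background the SD of the log2 differences was 0.24 between days 28 and 6, where all genes had one of 0.70. It was 0.23 between days 14 and 6 (all genes 0.64) and 0.18 between days 28 and 14 (all genes 0.44). The distance between the quartiles of the 83 genes was 0.25 between days 28 and 6, where that of the 1564 bright genes was 0.56. It was 0.31 between days 14 and 6, where the bright genes had 0.63. Between days 28 and 14 it was 0.26, close to the 0.30 of the bright genes. An error could be estimated only from how far the probe sets of 1 gene differ. For the 46 member genes with several probe sets above the background this SD was 0.17, 0.18 and 0.11 in the same order. It covers measurement and not culture. Of the 83 genes, 45 lay within 0.2 of their day 6 value at day 28 and 36 did at day 14, a limit close to that error. Within the SD itself lay 39 at day 28 and 33 at day 14. The same counts were not made over all genes or bright genes.

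**Figure D1:**
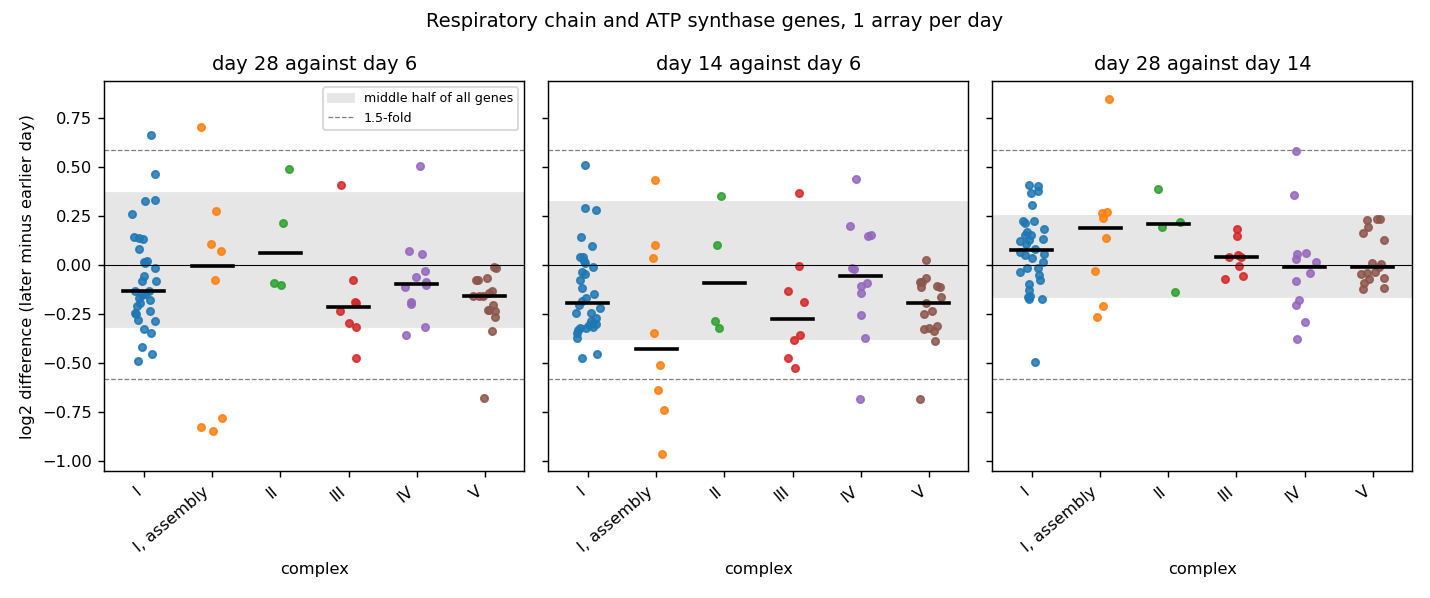
Log2 difference between 2 arrays (y axis) of each of the 83 genes above the background, by complex (x axis), in 3 panels for the 3 comparisons. Each point is 1 gene, black bars are medians, the grey band runs between the quartiles of all genes and dashed lines mark 1.5-fold. By the brightest probe set, all 17 points of complex V lie below 0 for day 28 against day 6, and the assembly factors spread furthest.

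Complex I takes electrons from NADH, and its 34 subunit genes above the background had a median of -0.13 between days 28 and 6, of -0.19 between days 14 and 6, and of 0.07 between days 28 and 14. At day 28, 22 were lower and 12 higher than at day 6, where 49.4% and 50.6% of all genes were. The exceptions in the higher direction included Ndufv3, an accessory subunit of the NADH-binding N module, which read 27.40, 27.91 and 28.06 at days 6, 14 and 28. It was higher on each later array and 1.58-fold higher at day 28 than at day 6. Ndufa13, an accessory subunit also known as GRIM-19, read 28.59, 28.87 and 29.05, a difference of 0.46 for day 28 against day 6. Each of these genes has 1 probe set of its own above the background.

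Ndufs4, an accessory subunit of the N module whose loss in mice causes a model of Leigh syndrome, lay at the other end. It read 27.76, 27.29 and 27.27, and was 1.40-fold lower at day 28 than at day 6. Its 3 probe sets above the background ranged from -0.69 to -0.11, so all were lower at day 28. Ndufa5, of the Q module that reduces ubiquinone, read 27.63, 27.31 and 27.21. Ndufs8, which holds iron-sulfur clusters, read 27.90, 27.75 and 27.57, and its 6 probe sets ranged from -0.46 to -0.20. Ndufs7, another iron-sulfur subunit of the same module, went the other way, with 27.78, 27.75 and 28.11 and a difference of 0.33.

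By module, the 7 N module genes had a median of 0.02 at day 28 and -0.22 at day 14 relative to day 6. Only Ndufv3 of them was higher at day 14 than at day 6, while 6 of the 7 were higher at day 28 than at day 14. In these comparisons 47.4% and 54.5% of all genes were higher. The catalytic members Ndufv1, which binds NADH and flavin, and Ndufv2 read 27.81, 27.80 and 27.95, and 28.37, 28.17 and 28.39. Ndufs1, the largest iron-sulfur subunit, read 27.42, 27.20 and 27.28. The accessory gene Ndufa2 read 28.64, 28.31 and 28.72, so its low at day 14 was gone at day 28. Of the 4 genes grouped as the Q module, 2 were lower and 2 higher at day 28 than at day 6, with a median of -0.16. Ndufs3, a core subunit of that module, read 28.00, 27.88 and 28.01. The 23 genes of the membrane arm and other accessory subunits also had a median of -0.16. Of them 17 were lower, where 49.4% of all genes were. In this group Ndufb1 (26.16, 25.83 and 25.81) and Ndufb6 (28.24, 27.79 and 27.96) were lower at both later days, while Ndufb11 (28.39, 28.68 and 28.52) was higher. Ndufa10 (28.08, 27.78 and 27.79), Ndufb7 (27.75, 27.46 and 27.51) and Ndufs5 (27.75, 27.37 and 27.50) had the common course of a lower level at both later days. Ndufb10 (27.69, 27.45 and 27.82) and Ndufa7 (28.67, 28.62 and 28.93) were instead highest at day 28. Ndufa1 (29.00, 29.15 and 29.02), Ndufb3 (27.21, 27.31 and 27.13), Ndufb9 (28.99, 29.01 and 28.93) and Ndufc2 (28.81, 28.85 and 28.80) differed by little. Ndufa6, an accessory subunit, was higher at day 28 alone, with 27.93, 27.85 and 28.25. Also of this group, Ndufa3, Ndufa8, Ndufa9, Ndufab1, Ndufb2, Ndufb5, Ndufb8 and Ndufc1 were 0.08 to 0.25 lower at day 28 than at day 6.

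Ndufa4 was grouped with complex I by its symbol, although it is now placed in complex IV. It read 29.19, 29.22 and 28.73, so days 6 and 14 were alike and day 28 lay 0.46 below day 6 and 0.50 below day 14. The difference between days 28 and 14 was the lowest of the 83 genes. Its paralogue Ndufa4l2, known as a hypoxia-induced gene, lay below the background on all arrays (22.11, 21.47 and 21.48). Ndufb4, a membrane arm subunit, also lay below it on its own probe set, at 21.28, 21.20 and 20.86.

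The largest differences were in the assembly factors of complex I, proteins that build the complex but are not part of it when finished. At day 28, 3 of 8 were 1.5-fold lower than at day 6 and 1 was 1.5-fold higher, where 12.3% and 15.7% of all genes were, and where 1 of the 72 ubiquitous subunits was lower and 1 higher. Their differences had an SD across genes of 0.58, where the subunits had 0.24 and all genes 0.70. Most subunits are brighter than these factors, and the part of brightness in this contrast was not tested. All 3 factors that were 1.5-fold lower were lower by day 14 already. Ndufaf4 read 26.52, 25.88 and 25.67, 1.80-fold lower at day 28 than at day 6, and its other probe set gave -0.40. Ndufaf6, which carries a phytoene synthase-like fold, read 25.33, 24.36 and 24.50. It was 1.78-fold lower at day 28 and 1.95-fold lower at day 14 than at day 6, the lowest difference of any member above the background. Ndufaf2, a paralogue of the subunit Ndufa12, read 27.15, 26.64 and 26.37, 1.72-fold lower at day 28 than at day 6.

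Ndufaf3, which joins Ndufaf4 in building the Q module, had the opposite course. It read 24.86, 25.29 and 25.56 and day 28 lay 1.63-fold above day 6, the highest difference of the 83 genes. Ndufaf5, which hydroxylates an arginine of the subunit Ndufs7, was low at day 14 alone, with 25.06, 24.32 and 25.16. Day 14 was 1.67-fold below day 6, and day 28 was 1.80-fold above day 14. Ndufaf1 (25.99, 25.65 and 25.91), Ndufaf7 (25.10, 25.14 and 25.38) and Ndufaf8 (25.89, 25.99 and 25.96) differed by less. The partners Ndufaf3 and Ndufaf4 thus differed in opposite directions between the same arrays. The values of Ndufaf2, Ndufaf3, Ndufaf5 and Ndufaf6 each rest on 1 probe set. The group median was -0.43 for day 14 against day 6.

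The promoters of Ndufaf4 and Ndufaf5 are printed because they hold the motif of NRF1, a factor known to act on many respiratory chain genes, and those of Ndufv3 and Atp5g1 because these were the ubiquitous subunits 1.5-fold apart. Each window covers 250 bases before to 50 bases after the start of the gene in RefSeq, build GRCm38.p6, 5′ to 3′ on the strand of the gene. Capitals mark matches to the motifs searched, which were GCATGCGC (NRF1), CCGGAAGT (ETS factors such as GABPA), AAGATGGC (YY1), GGGGCGGGG (SP1), TGACGTCA (CREB) and CACGTG (E-box), on both strands. The last 2 read the same on both strands.
Ndufaf4 (chr4:24897833-24898132, forward strand): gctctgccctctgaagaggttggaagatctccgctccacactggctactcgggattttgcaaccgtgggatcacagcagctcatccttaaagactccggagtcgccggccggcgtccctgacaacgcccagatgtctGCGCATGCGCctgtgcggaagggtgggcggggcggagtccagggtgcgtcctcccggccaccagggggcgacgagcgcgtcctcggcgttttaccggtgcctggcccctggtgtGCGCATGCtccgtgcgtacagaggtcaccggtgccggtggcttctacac
Ndufaf5 (chr2:140170396-140170695, forward strand): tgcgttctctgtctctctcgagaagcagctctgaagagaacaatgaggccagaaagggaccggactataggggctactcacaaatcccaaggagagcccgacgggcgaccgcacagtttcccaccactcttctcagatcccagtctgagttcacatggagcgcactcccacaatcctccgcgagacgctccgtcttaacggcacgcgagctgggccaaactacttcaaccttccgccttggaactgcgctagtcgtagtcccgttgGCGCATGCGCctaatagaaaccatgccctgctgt
Ndufv3 (chr17:31519865-31520164, forward strand): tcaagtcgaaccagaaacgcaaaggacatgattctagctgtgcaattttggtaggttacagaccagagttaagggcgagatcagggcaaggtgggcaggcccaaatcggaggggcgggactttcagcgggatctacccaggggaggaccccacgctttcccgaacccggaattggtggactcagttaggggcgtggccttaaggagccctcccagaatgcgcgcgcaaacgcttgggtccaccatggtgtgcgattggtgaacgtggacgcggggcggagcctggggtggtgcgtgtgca
Atp5g1 (chr11:96075582-96075881, reverse strand): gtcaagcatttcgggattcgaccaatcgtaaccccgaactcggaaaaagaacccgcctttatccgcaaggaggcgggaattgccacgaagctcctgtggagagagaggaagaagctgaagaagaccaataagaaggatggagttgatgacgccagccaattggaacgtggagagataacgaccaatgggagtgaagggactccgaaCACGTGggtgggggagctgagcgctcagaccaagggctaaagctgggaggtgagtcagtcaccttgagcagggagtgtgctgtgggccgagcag
In Ndufaf4 the NRF1 letters lay at bases -113 to -104, where the matches of both strands overlap, and again at bases 2 to 9 after the start. In Ndufaf5 an overlapping pair lay at bases 17 to 26. Atp5g1 held an E-box at bases -44 to -39, and Ndufv3 held none of the 6 motifs in this window.

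**Figure D2:**
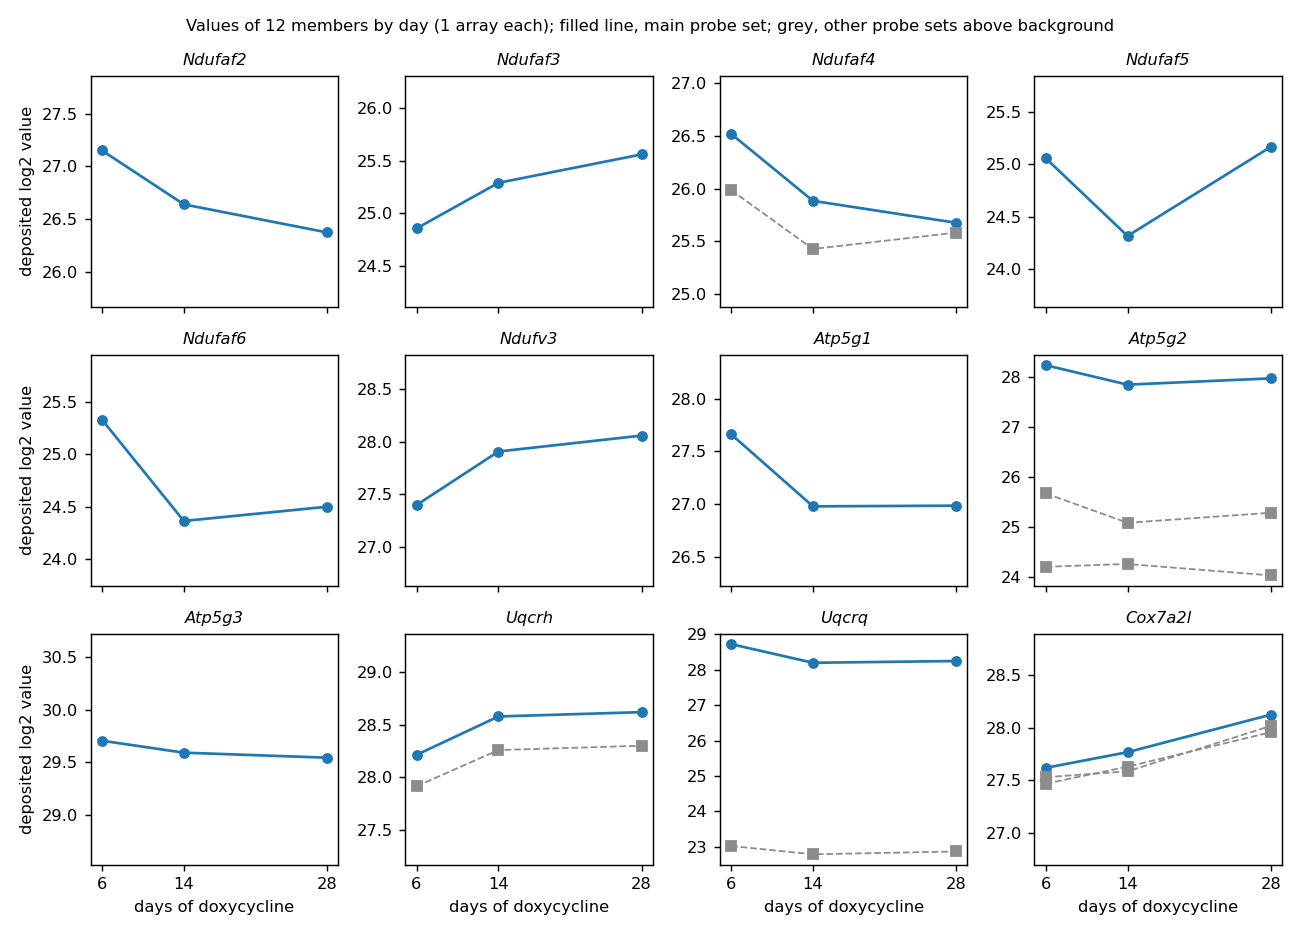
Deposited log2 value (y axis) against days of doxycycline (x axis, 6, 14 and 28) for 12 members, with 1 array per day. Filled circles are the main probe set and grey squares other probe sets above the background, and the y axes differ in position and in span. Ndufaf3, Ndufv3, Uqcrh and Cox7a2l are higher at day 28 than at day 6, Ndufaf2, Ndufaf4, Ndufaf6, Atp5g1 and Uqcrq are lower, and Ndufaf5 is lowest at day 14.

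Complex II, succinate dehydrogenase, links the citric acid cycle to the chain and has all its 4 subunits encoded in the nucleus. Its median difference was 0.06 at day 28 and -0.09 at day 14 relative to day 6, while day 28 lay 0.21 above day 14. The flavoprotein gene Sdha read 28.24, 28.59 and 28.45, and its 3 probe sets above the background gave 0.21 to 0.47 for day 28 against day 6. The membrane anchor gene Sdhc read 25.67, 25.78 and 26.16, and day 28 lay 1.40-fold above day 6, while its other probe set gave 0.14. The iron-sulfur gene Sdhb (28.50, 28.21 and 28.41) and the other anchor gene Sdhd (27.79, 27.47 and 27.69) were lowest at day 14. By the brightest probe sets Sdha and Sdhc were higher at both later days than at day 6, and Sdhb and Sdhd lower. For day 14 the probe sets of Sdhc disagreed in sign, at 0.10 and -0.11 relative to day 6.

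Complex III, the cytochrome bc1 complex, had the lowest complex median for day 28 against day 6, -0.22. Of its 8 genes, 7 were lower, where 49.4% of all genes were. With the same exception, the 8 read lower at day 14 than at day 6, at a median of -0.27, where 52.6% of all genes were lower. Uqcrq, a small subunit beside cytochrome b, read 28.73, 28.20 and 28.25, and was 1.39-fold lower at day 28 than at day 6. A second, dimmer probe set gave -0.15. Uqcrfs1, the Rieske iron-sulfur protein that hands electrons to cytochrome c1, read 28.02, 27.66 and 27.70. The core proteins Uqcrc1 (28.07, 27.88 and 27.87) and Uqcrc2 (28.45, 28.44 and 28.37) differed by less. Uqcrb, which helps bind ubiquinone, read 29.95, 29.56 and 29.71, and Uqcr11, a small subunit, read 28.07, 27.94 and 27.88. The exception was Uqcrh, the hinge protein between cytochrome c1 and cytochrome c, which read 28.21, 28.58 and 28.62. Day 28 lay 1.33-fold above day 6, and its other probe set gave 0.39. Uqcr10 read 27.88, 27.40 and 27.58, and its other probe sets gave -0.86 and -0.77 for day 14 against day 6, so the probe sets of this gene disagreed on the size of the day 14 difference.

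Complex IV, cytochrome c oxidase, passes electrons to oxygen. Of the 17 genes grouped here 12 lay above the background, with a median of -0.10 between days 28 and 6, of -0.06 between days 14 and 6, and of -0.01 between days 28 and 14. Cox5a, the subunit that binds thyroid hormone T2, read 29.67, 29.30 and 29.32, and its 3 probe sets gave -0.45 to -0.36 for day 28 against day 6. Cox5b, a zinc-binding subunit, read 29.48, 29.37 and 29.17. Of its 5 probe sets above the background, 4 gave -0.56 to -0.32 and the dimmest gave 0.27. Cox4i1 (29.73, 29.89 and 29.81), Cox6b1 (29.36, 29.34 and 29.30), Cox7a2 (29.50, 29.36 and 29.38) and Cox8a (28.83, 28.73 and 28.79) differed by little. Cox6c read 29.03, 29.01 and 28.83. Cox7c was higher at day 14 alone, with 25.27, 25.71 and 25.33. Cox7a2l was the highest of this group. It is a factor that joins complexes III and IV into supercomplexes, and read 27.62, 27.77 and 28.12, 1.42-fold higher at day 28 than at day 6. Its 3 probe sets gave 0.49 to 0.51.

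Several subunits of complex IV have isoforms known from heart and skeletal muscle, lung or testis. Cox4i2, Cox6b2, Cox7a1, Cox7b2 and Cox8b lay below the background on all arrays, so no difference is given for them. Cox6a2, the muscle isoform, read 23.50, 22.82 and 23.40 on 1 probe set, 0.69 lower at day 14 than at day 6 and just above the day 14 background of 22.58. Its other probe set was below the background throughout. Cox8c, the testis isoform, read 24.38, 24.13 and 24.19, and its other probe set was likewise below. The ubiquitous partners Cox6a1 (29.86, 30.06 and 29.77) and Cox8a were above the background on all arrays.

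Complex V, the ATP synthase, was lower for most genes. By the brightest probe set, all 17 were lower at day 28 than at day 6, with a median of -0.16 and a range from -0.68 to -0.01, where 49.4% of all genes were lower. The count depends on the probe set. With all probe sets of a gene averaged, 14 of 17 were lower, and with those above the background averaged, 15 of 17. In the second case Atp5c1 (0.19) and Atp5a1 (0.03) were higher. For day 14 against day 6, 16 of 17 were lower, where 52.6% of all genes were, and the median was -0.20. For day 28 against day 14 the median was -0.01. Of the 17 differences, 10 were within the SD between probe sets of 0.17 for day 28 against day 6, and 8 were within the SD of 0.18 for day 14 against day 6. The catalytic head, which holds the sites of ATP synthesis, had a median of -0.08 over 5 genes. In the head, the β subunit gene Atp5b read 29.58, 29.47 and 29.35. The α subunit gene Atp5a1 read 29.56, 29.47 and 29.48, although its other probe sets gave 0.14 and 0.04. Atp5d (28.60, 28.35 and 28.58) and Atp5e (27.49, 27.18 and 27.42), which encode the δ and ε subunits of the central stalk, were low at day 14 alone. Of the stalk and membrane genes, Atp5pb, the b subunit, read 29.26, 28.93 and 28.92 and was 1.27-fold lower at day 28 than at day 6. Atp5o, which joins the head to the stalk, read 29.24, 28.92 and 29.08. Atp5h, the d subunit, was the exception at day 14, with 29.10, 29.12 and 29.03. Atp5md (28.39, 28.15 and 28.38) and Atp5mpl (27.77, 27.43 and 27.62), small membrane proteins of the enzyme, were lowest at day 14. Atp5j, Atp5j2, Atp5k and Atp5l, of the stalk and the membrane part, were 0.16 to 0.23 lower at day 28 than at day 6.

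The c ring, the rotor turned by protons, is made from 3 genes that encode the same mature protein with different import signals. Atp5g1, the isoform gene known to vary with demand, read 27.66, 26.98 and 26.98, and was 1.61-fold lower at day 14 and 1.60-fold lower at day 28 than at day 6. Atp5g2 read 28.25, 27.86 and 27.98, a difference of -0.26 for day 28 against day 6. Atp5g3 read 29.71, 29.59 and 29.54, a difference of -0.16. All 3 were lower at both later days, and Atp5g1 was the only ATP synthase gene 1.5-fold apart. A further probe set of Atp5g1 lay below the background on all arrays (19.85, 21.01 and 21.24), so the result rests on 1 probe set.

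In time order, 42 of the 83 genes were lower at day 14 than at day 6 and higher at day 28 than at day 14. Another 21 were lower in both steps, 13 were higher and then lower, and 7 were higher in both. These courses were not counted over all genes, of which 52.6% were lower in the first step and 54.5% higher in the second. Whether the courses of the 83 genes differ from those of all genes was not tested. The day 14 array enters the first step with a plus and the second with a minus, so its own error can give the courses that turn. In complex I the low at day 14 was the commonest course, with 20 of 34 genes, and in complex V the genes were even, with 8 of 17 in that course and 8 lower in both steps. Uqcrh was the complex III gene that was higher in both steps, and Ndufv3 and Ndufa13 were those of complex I.

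Of the 46 genes with several probe sets above the background, 37 had them all on 1 side of 0 for day 28 against day 6. The number was 31 for day 14 against day 6, and it was 28 when day 28 was set against day 14. The genes with the widest range for day 28 against day 6 included Cox5b, Atp5c1 (-0.13 to 0.51) and Ndufab1 (-0.27 to 0.39). In Cox5b and Atp5c1 the dimmest probe set above the background was the one on the higher side. Atp5c1 encodes the γ shaft of the ATP synthase, and Ndufab1 encodes an acyl carrier protein that is also a complex I subunit.

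**Figure D3:**
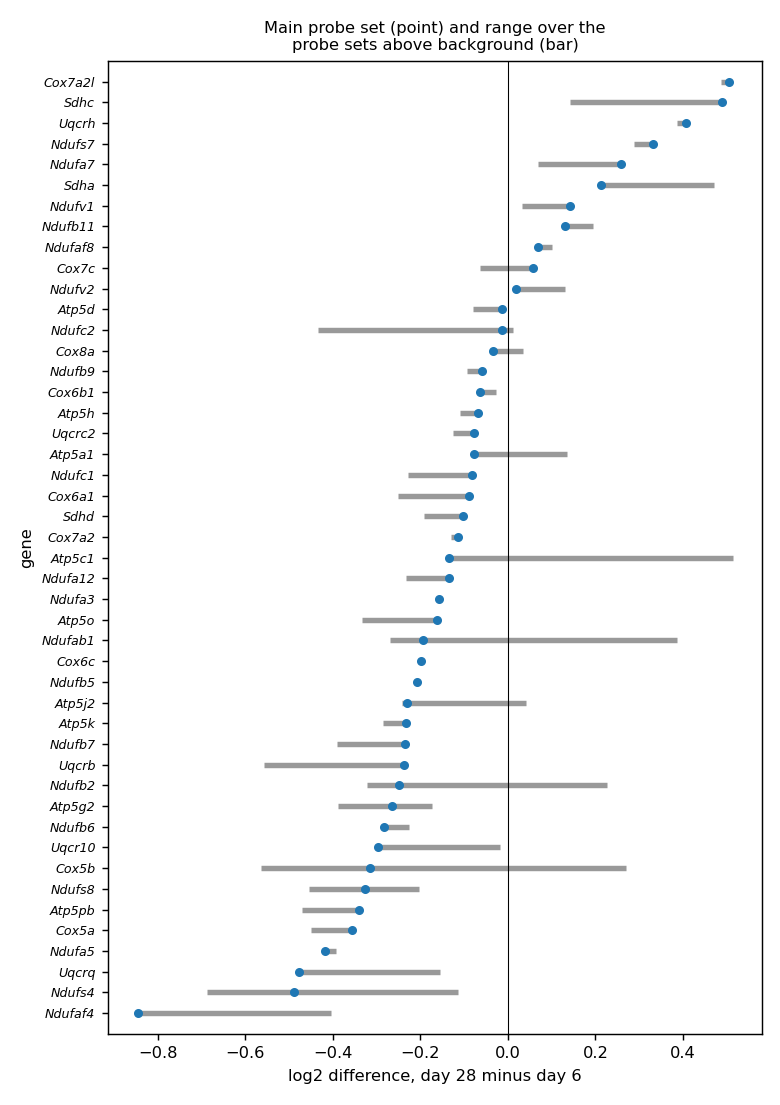
Log2 difference for day 28 minus day 6 (x axis) of the 46 genes with several probe sets above the background (y axis), 1 array per day. The point is the main probe set and the bar runs over all probe sets of the gene above the background. The bars of Cox7a2l and Uqcrh lie wholly above 0, those of Ndufaf4, Ndufs4, Uqcrq and Cox5a wholly below, and that of Cox5b crosses 0.

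Genes of the mitochondrial ribosome and of protein import had lower medians than the respiratory chain genes at both later days. The 76 genes of the mitochondrial ribosome, which translates the subunits encoded in mitochondrial DNA, had a median of -0.47 for day 28 against day 6, and 28 were 1.5-fold lower and 0 higher, against 12.3% and 15.7% of all genes. For day 14 against day 6 their median was -0.54, with 34 lower by 1.5-fold and 0 higher, against 14.2% and 13.5% of all genes. Day 28 differed from day 14 by a median of 0.08. Mrps25 read 26.72, 25.90 and 25.52, Mrpl54 read 26.35, 25.39 and 25.20, and Mrpl1 read 25.54, 24.16 and 24.60, while Mrpl44, the highest, read 26.60, 26.74 and 26.92. The 27 genes of protein import and cristae had medians of -0.43, -0.56 and 0.09 in the same order, with 7 genes 1.5-fold lower (25.9%) at day 28 than at day 6 and 0 higher. Timm8a1, a chaperone of the space between the membranes, was the lowest, at 27.91, 26.10 and 26.27. Tomm40, the channel of the outer membrane, read 26.78, 25.94 and 25.91. Micos13, of the cristae junction complex, was the highest, at 27.36, 27.47 and 27.87. No test of the difference between these lists and the respiratory chain genes was possible with 1 array per time point.

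The citric acid cycle genes had medians of -0.25 at day 28 and -0.35 at day 14 relative to day 6. At day 28, 15 of 18 were lower than at day 6, where 49.4% of all genes were. Suclg2, a subunit of succinyl-CoA ligase, read 27.81, 26.98 and 27.03, and citrate synthase, Cs, read 28.49, 27.85 and 28.06. In the list of cytochrome c, cytochrome c1 and ubiquinone synthesis the median for day 28 against day 6 was -0.20 over 18 genes. Cycs, the electron carrier between complexes III and IV, read 29.99, 29.30 and 29.56, and Cyc1, the haem subunit of complex III, read 28.68, 28.24 and 28.33. Coq7, a hydroxylase of ubiquinone synthesis, was 0.78 lower at both later days than at day 6. Coq8a, a kinase-like protein of the same route, lay below the background at day 6 and read 24.02 and 23.98 at days 14 and 28.

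Assembly factors outside the Nduf symbols had a median of -0.17 for day 28 against day 6 over 41 genes. By 1.5-fold, 7 were lower (17.1%, where 12.3% of all genes were) and 1 was higher (2.44%, where 15.7% were). Coa7, an assembly factor of complex IV, read 25.26, 23.89 and 24.03, and Cox10, which makes its haem, read 25.56, 24.65 and 24.76. Ecsit, an assembly factor of complex I, read 24.20, 23.35 and 23.53. The gene 1.5-fold higher was Uqcc1, an assembly factor of complex III, at 25.85, 25.88 and 26.81. Among carriers and inhibitors, the ADP/ATP carrier gene Slc25a5 read 29.24, 28.43 and 28.37, while its paralogue Slc25a4 read 29.35, 29.25 and 29.30. Atpif1, the inhibitor of the ATP synthase, was low at day 14 alone, at 27.74, 27.31 and 27.79. The 6 inhibitor and uncoupler genes described had a median of -0.34 for day 28 against day 6. Of the subunits encoded in mitochondrial DNA only ND5 was matched, at 29.77, 30.12 and 29.75, a difference of 0.35 for day 14 against day 6.

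**Figure D4:**
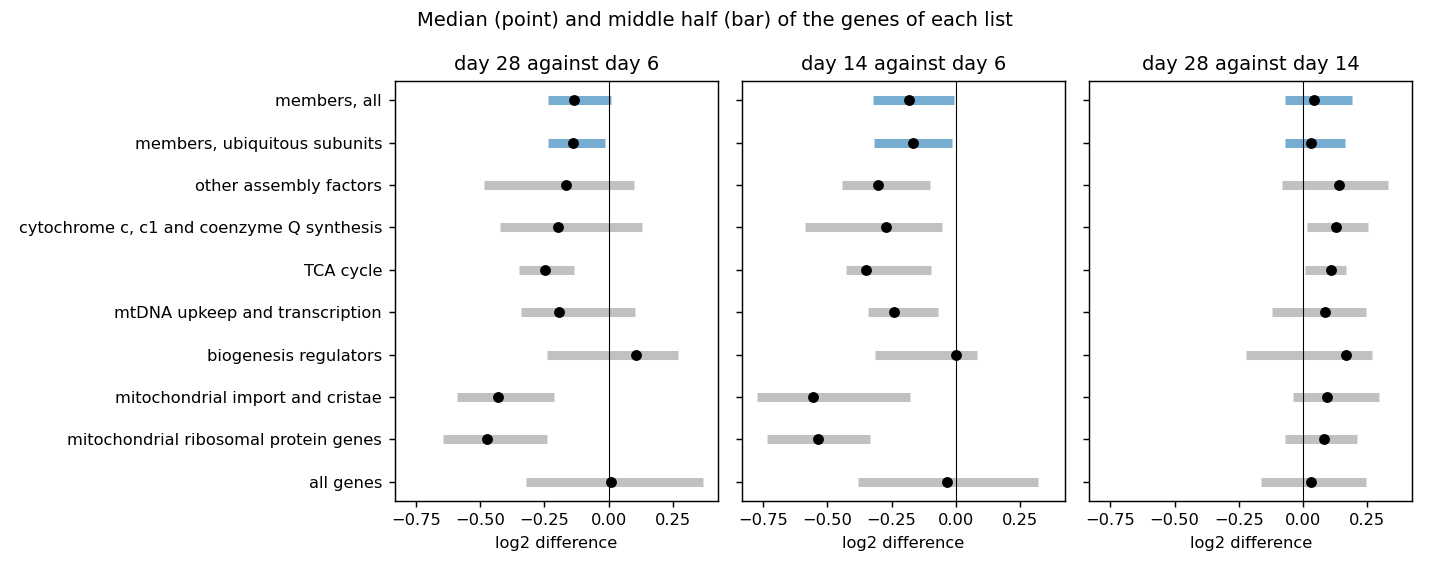
Log2 difference between 2 arrays (x axis) for the respiratory chain and ATP synthase genes (blue, called members) and for other mitochondrial gene lists and all genes (grey), in 3 panels for the 3 comparisons. Points are medians over genes and bars run between the quartiles, with 1 array per day. For day 28 against day 6 the mitochondrial ribosome (-0.47) and import (-0.43) lists lie lowest, and the members' median is -0.13.

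Regulators of these genes split, with 11 higher and 10 lower of 21 at day 28 than at day 6 and a median of 0.11. In that comparison 50.6% of all genes were higher and 49.4% lower. Ppargc1a read 24.06, 25.30 and 24.40, so it was 1.25 higher at day 14 than at day 6 and 0.90 lower at day 28 than at day 14. Mitf read 23.67, 26.10 and 25.80. Pprc1, a relative of Ppargc1a that responds to growth signals, read 27.29, 26.56 and 26.77, and Myc, which is known to act on mitochondrial biogenesis, read 26.87, 26.22 and 26.38. The factor gene Nrf1 read 24.54, 24.01 and 24.30, Esrra read 24.89, 24.37 and 24.87, and Gabpa read 26.83, 26.87 and 26.57. Tfam, which packs and transcribes mitochondrial DNA, read 26.72, 26.29 and 26.19. The 16 genes of mitochondrial DNA upkeep and transcription had a median of -0.19 for day 28 against day 6. Of the 16 genes, 10 were lower (62.5%, where 49.4% of all genes were). Their range ran from Top1mt, a topoisomerase, at 24.81, 23.98 and 24.21, to Polg, the DNA polymerase, at 26.21, 26.79 and 26.47.

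A RefSeq promoter window was at hand for 74 of the 90 genes, with 79 windows in all. The NRF1 letters were in 13.9% of these windows, against 3.52% of 21263 windows of protein-coding genes, and the YY1 letters in 12.7%, against 3.05%. The ETS letters were in 6.33% against 5.15%, SP1 in 15.2% against 15.4%, CREB in 3.80% against 2.23% and the E-box in 8.86% against 7.84%. The 11 genes with the NRF1 letters had a median of -0.19 for day 28 against day 6, and the 58 genes above the background without them had one of -0.12. For the 10 genes with the YY1 letters and the 59 without, the medians were -0.16 and -0.12. A match is a run of letters in the window and not a site shown to be bound.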

How the data were processed

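Total RNA was labelled with biotin and hybridized to Affymetrix arrays, per the labels' protocols. The authors deposited log2 values of 45101 probe sets for each array, with the base of 2 inferred here. How probes were summarized is not stated in the labels. Sorting the 3 columns gave the same values in each, the mark of quantile normalization, which removes any difference common to most genes. The median of 22.9 is high for such a table, and an added constant, which leaves differences as they are, was assumed. A multiplied scale would change every difference and fold.

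The platform annotation gave 1 gene for 34958 probe sets and several for 932. For each gene the probe set with the highest mean was used, and the others are given where several lay above the background. As background served the 90th percentile over 113 probe sets of 70 genes silent in pigment cells (79 listed). Genes below it on both arrays of a comparison were not described. Calls are fold limits (1.5-fold and 2-fold) and not tests, since each time point has 1 array.

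The members and lists were chosen with earlier results of these data known. Named by rule were, per complex, the 3 highest and 3 lowest genes for day 28 against day 6 and the 2 highest and 2 lowest for the other comparisons, genes 1.5-fold apart, Sdh genes, isoforms with their partners, and up to 3 genes per list and direction, of which a part is printed. Other members are named for their role in the complex. Alternatives covered the probe set, the background, dim values, scaling and the choice of members. Python 3.11.15, numpy 2.4.6, pandas 2.3.3 and matplotlib 3.10.9 were used, and the counts were tested on simulated data.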

Additional observations from a re-analysis of the deposited data

How the results depend on the processing

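Over 11 alternatives, of which the mean of the probe sets above the background was chosen after seeing the data, the median of all respiratory chain genes ran from -0.17 to -0.13 between days 28 and 6, from -0.27 to -0.15 between days 14 and 6, and from -0.01 to 0.09 between days 28 and 14. The last has no settled direction, since it was -0.01 when the median gene was set equal and 0.09 under equal hybridization controls. No complex median moved by more than the SD between probe sets. Counts at the fold limits were small and moved more. The counts below are of respiratory chain genes or their probe sets alone. Shares of all genes or probe sets were not counted under the alternatives. These counts therefore do not compare the respiratory chain genes with the array as a whole. With every probe set counted by itself, 112 of 162 were lower at day 28 than at day 6 (complex V 26 of 30), 119 of 162 were lower at day 14 than at day 6, and 68 of 158 were lower at day 28 than at day 14 (complex V 14 of 30). At the limits 7 were 1.5-fold lower at day 28 than at day 6, and for day 14 against day 6 there were 13 lower and 1 higher at 1.5-fold and 1 lower at 2-fold, while 3 were higher for day 28 against day 14. With no background filter, 7 were 1.5-fold and 1 was 2-fold lower for day 28 against day 6, and 2 were 1.5-fold lower for day 28 against day 14. Under equal hybridization controls 5 of 17 complex V genes were lower at day 28 than at day 14, 1 member was 2-fold lower for day 14 against day 6 and 2 were 1.5-fold higher for day 28 against day 14. With ubiquitous subunits alone, which holds fewer genes, the 1.5-fold counts were 1 higher and 1 lower for day 28 against day 6, 1 lower for day 14 against day 6 and 0 higher for day 28 against day 14.

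When all probe sets of a gene were averaged, 7 genes turned direction between days 28 and 6. The number was 9 between days 14 and 6, and it reached 12 between days 28 and 14. Most of these differed by less than the SD between probe sets. Those that differed by at least the SD were Atp5g1 (0.36 at day 28 and 0.24 at day 14 relative to day 6), Cox5b (0.0368 at day 28 relative to day 6 and 0.21 relative to day 14), Ndufab1 (0.0017 at day 28 relative to day 6), Cox8c (0.0058 at day 14 relative to day 6) and Sdha (0.0626 at day 28 relative to day 14). Each of these 5 genes has a probe set below the background on all arrays, which the average includes. With the probe sets above the background averaged, 4, 6 and 8 genes turned in the same order, and 0 of them differed by at least the SD. Atp5a1 and Atp5c1 turned in each comparison under both averages, with no probe set below the background. The count of the 83 members lower at day 28 than at day 6 was 56 under the mean of all probe sets. It was 59 under the mean of those above the background. No paired analysis was possible because each time point has 1 array. No array could be left out for the same reason, and 1 array per day leaves the spread between cultures unknown.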

Other observations

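Several members share probe sets with pseudogenes or neighbours, and these 10 probe sets, which name several genes, were outside the symbol rule. The probe set of Ndufs6 and Ndufs6b, subunits of the N module, read 27.31, 26.74 and 26.90 at days 6, 14 and 28, so it was 0.41 lower at day 28 than at day 6. The brightest probe set of Ndufb4 and its copies read 28.39, 28.34 and 28.34, while the probe set of Ndufb4 alone was below the background. A probe set of Ndufa13 and its neighbour Yjefn3 read 23.49, 23.05 and 24.17, with a difference of 1.12 for day 28 against day 14, where the probe set of Ndufa13 alone gave 0.19. The probe set of Ndufs5 and its pseudogene read 27.94, 27.72 and 27.68, against 27.75, 27.37 and 27.50 for Ndufs5 alone. The 2 probe sets of Ndufa11 and Ndufa11b gave 0.02 and -0.18 for day 28 against day 6.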
